A study of Mus musculus with 18 samples.

Results

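The 5′ fragments of the nuclear-encoded glutamate tRNAs were measured in mouse lung in a study of mesenchymal stem cells (called BMSCs by the labels) given to mice with smoke-induced chronic obstructive pulmonary disease (COPD). The members were all rows of the deposited table of tRNA-derived small RNAs (tsRNAs) that carry a nuclear glutamate tRNA in their name and one of the structural types tRF-5b, tRF-5c or tiRNA-5. The choice used names and types and no measured value, though it was made with earlier results of these data known. It gave 24 of the 193 listed tsRNAs, of which 19 were tRF-5c, 5 were tiRNA-5 and 0 were tRF-5b. Mice of the COPD model group breathed cigarette smoke, had smoke extract injected into the peritoneum and received phosphate-buffered saline. BMSC-treated mice were model mice that received 4000000 BMSCs in 100 µl of saline through the tail vein, and control mice received saline without smoke. Each group had 3 tsRNA libraries and 3 mRNA libraries of lung tissue. Neither strain, sex, age and length of exposure nor the number of mice behind the libraries is given in the sources used here, so p-values reflect the spread between samples, which may be technical. Lung identity of the tissue was checked in the mRNA libraries, where Sftpc, the surfactant protein of alveolar type 2 cells, stood at 614.2 to 3249 FPKM and Ager, a marker of alveolar type 1 cells, at 14.7 to 128.8 FPKM.

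Glutamate tRNAs read the glutamate codons with the anticodons CTC or TTC, and families of near-identical genes, called isodecoders, share an anticodon and differ elsewhere in the body of the tRNA. A tiRNA-5 is the 5′ piece left when a nuclease cuts a mature tRNA in its anticodon loop. Angiogenin is the best known such nuclease, and it is held in check by the ribonuclease inhibitor Rnh1. A tRF-5c is a shorter 5′ piece that ends before the anticodon, in its stem or loop. 5′ fragments of glutamate and glycine tRNAs are among the most abundant tsRNAs in many mammalian tissues, and in human airway epithelial cells fragments of glutamate tRNA with anticodon CTC are known to be induced by respiratory syncytial virus.

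The members came from 5 isodecoders, with 10 members of anticodon CTC and 14 of anticodon TTC. Glu-CTC-1, Glu-TTC-1 and Glu-TTC-2 gave 6 members each, Glu-CTC-2 gave 4 and Glu-TTC-3 gave 2. Within an isodecoder the members are nested, because all start at the first base of the tRNA and differ only in where they end. The 34-nucleotide tiRNA-5 of Glu-TTC-1, Glu-TTC-2 and Glu-TTC-3 are shown because their sequences decide how far reads of one family could be told from those of another. Capitals mark bases 2 to 8, the stretch that would act as a seed if a fragment guided an Argonaute protein as a microRNA does. Every shorter member is the start of the sequence of its isodecoder.
tiRNA-1:34-Glu-TTC-1: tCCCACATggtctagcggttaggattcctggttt
tiRNA-1:34-Glu-TTC-2: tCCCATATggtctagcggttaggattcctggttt
tiRNA-1:34-Glu-TTC-3: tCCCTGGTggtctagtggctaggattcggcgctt

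Glu-TTC-1 and Glu-TTC-2 differ from each other at 1 position, C6T, counted from 1 at the 5′ end with the base of Glu-TTC-1 first. Glu-TTC-1 and Glu-TTC-2 each differ from Glu-CTC-1 at 9 of the 34 positions, while Glu-TTC-3 differs from it at 2 and Glu-CTC-2 at 1. Bases 2 to 8 are the same in Glu-CTC-1, Glu-CTC-2 and Glu-TTC-3, and they differ from these in Glu-TTC-1 and in Glu-TTC-2. The number of mismatches allowed when the authors aligned reads is not given in the sources used here, so the division of reads among these families is uncertain.

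The end of the tiRNA-5 can be placed on the parent tRNA, whose sequence the deposited table gives with its CCA tail, as shown for Glu-TTC-1. Capitals mark the anticodon, at positions 34 to 36 of the 75 bases.
tRNA-Glu-TTC-1-1: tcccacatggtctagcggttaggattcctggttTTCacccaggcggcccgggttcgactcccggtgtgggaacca
The 34-nucleotide member of each isodecoder therefore ends at the first base of the anticodon. The tRF-5c members were 28 to 32 nucleotides long. No member of 33 nucleotides was listed, while 10 of the other nuclear 5′ tsRNAs had that length. The RefSeq annotation of GRCm38.p6 (mm10) lists 20 nuclear glutamate tRNA genes on 10 chromosomes, 12 with anticodon CTC and 8 with TTC, including 5 genes on chromosome 1 and 4 on chromosome 3. Neither the table nor the annotation pairs these genes with the isodecoder names, so no member is given a coordinate.

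The listed counts came to 440448 to 1742029 per tsRNA library, and values are given as CPM, counts scaled to each library's total of 893028 to 2679933 reads. The shallowest libraries were COPD model 3 with 440448 listed counts, BMSC-treated 2 with 480002 and control 2 with 618572. In these 3 libraries the listed tsRNAs made up 42.6% to 49.32% of the library total, against 58.58% to 70.58% in the others, and their scaling factors by the trimmed mean of M values (TMM) were 1.33 to 1.74, against 0.64 to 1.03. A count of 0 allows up to 3 counts, which is 1.12 to 3.36 CPM here, and such limits and intervals cover counting error only. Groups were compared for each tsRNA with the edgeR quasi-likelihood test over 191 tsRNAs, all 24 members among them, with Benjamini-Hochberg adjustment and a threshold of 0.05. In whole lung, fewer cells of a type and less RNA per cell cannot be told apart.

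The fragments of Glu-CTC-1 made up most of the glutamate signal in every library. They gave 84.57%, 86.96% and 77.0% of the member counts in the COPD model libraries, 89.33%, 87.52% and 88.27% in BMSC-treated libraries and 86.38%, 82.08% and 85.87% in control libraries. Summed over its 6 lengths, Glu-CTC-1 averaged 22770 ± 7380 CPM in the COPD model, 20840 ± 1453 CPM after BMSCs and 23150 ± 6272 CPM in control (SD, n = 3 each), and the 3 groups overlapped. All 24 members together held 4.69% ± 1.04 of the listed counts in the COPD model, 4.06% ± 1.08 after BMSCs and 4.79% ± 0.88 in control (SD, n = 3 each). Of the library totals they held 2.72% ± 0.73 in the COPD model, 2.36% ± 0.15 after BMSCs and 2.72% ± 0.69 in control. In both shares the ranges of the 3 groups overlapped. Glycine tRNA 5′ tsRNAs took 65.73% to 89.46% of the listed counts, and these counts stand in the denominator of the glutamate shares.

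The most abundant member was tiRNA-1:34-Glu-CTC-1, which ranked 7th of all 193 tsRNAs by mean CPM. It stood at 13460, 17190 and 7339 CPM in COPD model libraries, at 7298, 16150 and 11980 CPM in BMSC-treated libraries and at 9724, 13320 and 12260 CPM in control libraries. The groups overlapped, and the control values lay inside the range of each other group. The shorter fragments tRF-1:32-Glu-CTC-1 and tRF-1:29-Glu-CTC-1 came next. tRF-1:32-Glu-CTC-1 had 3572, 4620 and 1430 CPM in the COPD model, 5109, 2410 and 3006 CPM after BMSCs and 4557, 1802 and 6229 CPM in control. tRF-1:29-Glu-CTC-1 had 2491, 3579 and 2658 CPM in the COPD model, 5336, 897.4 and 1757 CPM after BMSCs and 4199, 861.5 and 5321 CPM in control. Libraries of one group lay far apart for this 29-nucleotide fragment, with 5336 and 897.4 CPM among the BMSC-treated and 5321 and 861.5 CPM among the controls. tRF-1:28-Glu-CTC-1 spanned 364.3 to 2964 CPM over the 9 libraries and tRF-1:30-Glu-CTC-1 spanned 515.8 to 2059 CPM. tRF-1:31-Glu-CTC-1, the least abundant of the family, spanned 322.3 to 1173 CPM.

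The balance between the 34-nucleotide piece and the shorter pieces of Glu-CTC-1 moved widely within groups. The 34-nucleotide share was 58.36%, 57.29% and 48.12% in COPD model libraries (95% Wilson intervals of 57.88% to 58.84%, 56.88% to 57.69% and 47.29% to 48.96%). It was 32.71%, 77.71% and 61.72% in BMSC-treated libraries (32.29% to 33.13%, 77.15% to 78.25% and 61.3% to 62.14%). In control libraries it was 43.08%, 77.51% and 41.28% (42.65% to 43.51%, 76.99% to 78.03% and 40.94% to 41.62%). The highest shares were those of BMSC-treated 2 and control 2, which belong to the 3 shallowest libraries, while the third of these, COPD model 3, had 48.12%. The part of depth in this balance was not tested.

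Among its listed lengths, Glu-TTC-3 was found almost only as the 34-nucleotide piece. This piece held 99.37%, 99.36% and 99.87% of its counts in the COPD model, 98.86%, 99.75% and 99.39% after BMSCs and 99.21%, 99.86% and 99.14% in control, with 95% Wilson intervals that lay between 98.36% and 99.96%. tiRNA-1:34-Glu-TTC-3 stood at 2498, 2544 and 1736 CPM in the COPD model, 1141, 2263 and 1545 CPM after BMSCs and 1757, 3004 and 2329 CPM in control, and the groups overlapped. The only other member of the family, tRF-1:32-Glu-TTC-3, had 2 to 54 reads per library, which is 2.24 to 20.15 CPM. Every listed tsRNA reached at least 20.15 CPM in some library. Scarcer pieces of other lengths may therefore be missing from these shares and intervals. Set against the Glu-CTC-1 member of the same length, the family depended strongly on where the fragment ended. At 34 nucleotides there were 18.56, 14.81 and 23.65 reads of Glu-TTC-3 per 100 of Glu-CTC-1 in the COPD model, 15.63, 14.01 and 12.89 after BMSCs and 18.07, 22.54 and 19.0 in control. At 32 nucleotides there were 0.16 to 0.45 per 100 over the 9 libraries. Over 32 bases the families differ at 1 position, and over 34 bases at 2. All 3 BMSC-treated libraries lay below all 3 control libraries in the 34-nucleotide ratio, and they overlapped the COPD model libraries. This ratio was singled out after its values were seen and is given without a test. Because both members come from one library, no scaling factor enters it.

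Glu-CTC-2 differs from Glu-CTC-1 by 1 base and was scarce at every length. At 34 nucleotides it gave 0.23 to 0.31 reads per 100 of Glu-CTC-1 over all 9 libraries, a narrow range, with means of 0.26 ± 0.02 in the COPD model, 0.27 ± 0.02 after BMSCs and 0.27 ± 0.04 in control (SD, n = 3 each). At 29 nucleotides the ratio was higher and more variable, at 0.47 to 2.15 per 100, and at 28 nucleotides it was 0.56 to 1.75. tRF-1:29-Glu-CTC-2 was the most abundant member of the family, with 29.59, 39.13 and 43.67 CPM in the COPD model, 49.81, 11.19 and 8.30 CPM after BMSCs and 61.5, 10.33 and 114.6 CPM in control. The control libraries alone spanned more than the other libraries did together. The 28- and 32-nucleotide members of the family went down to 4 and 3 reads in single libraries.

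Glu-TTC-1 and Glu-TTC-2, which share the alternative start and differ from each other by 1 base, were found at all 6 lengths. The 34-nucleotide piece held 29.03% to 61.08% of Glu-TTC-1 counts and 34.88% to 64.75% of Glu-TTC-2 counts over the 9 libraries. Glu-TTC-2 summed to 1479 ± 335.2 CPM in the COPD model, 768.8 ± 311 CPM after BMSCs and 1201 ± 657.9 CPM in control (SD, n = 3 each). Glu-TTC-1 summed to 572.8 ± 276.4 CPM in the COPD model, 233.1 ± 82.48 CPM after BMSCs and 353.6 ± 163.7 CPM in control. The COPD model mean of Glu-TTC-1 leans on COPD model 3, which had 891.3 CPM against 396.6 and 430.4 CPM in the other libraries of its group. In that library Glu-TTC-1 and Glu-TTC-2 made up 4.50% and 9.37% of the member counts, against 0.61% to 1.49% and 2.02% to 5.21% in the other 8 libraries. COPD model 3 is also the shallowest library of all.

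Glutamate fragments sat between glycine and the remaining tRNAs in the balance of tiRNA-5 to shorter pieces. The tiRNA-5 type held 36.73% to 79.57% of glutamate 5′ counts in the 9 libraries, against 1.48% to 5.37% of glycine 5′ counts and 67.17% to 88.59% of the counts of other nuclear 5′ tsRNAs. In every library the glutamate share lay above that of glycine and below that of the other tRNAs. These are sums over 24, 29 and 46 tsRNAs and were not tested.

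The comparison of COPD model with control lungs asked which glutamate fragments differed after smoke exposure. No member passed, as no tsRNA did (0 of 191, or 0.0%). At an unadjusted p under 0.05 there were 11 tsRNAs, and 1 of them was a member. DESeq2 called 2 of the tsRNAs and no member, and limma on log2(CPM + 1) called 0 tsRNAs. The median log2 change of the 24 members was 0.29, with 16 positive and 8 negative, beside a median of 0.21 over all tsRNAs tested. The members of Glu-TTC-1 had a median of 1.05 with 6 of 6 positive, and those of Glu-TTC-2 had 0.70 with 5 of 6 positive, while the Glu-CTC-1 median was -0.01 with 3 positive and 3 negative. The members of a family are nested pieces, and Glu-TTC-1 and Glu-TTC-2 differ by 1 base, so these signs are not separate observations. Without the 3 shallowest libraries the median over all members turned to -0.09, beside -0.05 over all tsRNAs. tRF-1:32-Glu-TTC-1 then turned from 0.95 to -0.16 and tRF-1:32-Glu-TTC-2 from 0.54 to -0.27. tRF-1:30-Glu-TTC-1, tRF-1:29-Glu-TTC-1 and tRF-1:31-Glu-TTC-1 stayed positive, at 0.87, 0.62 and 0.44.

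The member with the smallest p was tRF-1:30-Glu-TTC-1. It had 9.11, 12.36 and 36.95 CPM in COPD model libraries against 5.43, 2.76 and 5.97 CPM in control libraries, which are 16, 24 and 33 reads against 12, 4 and 16. All COPD model values lay above all control values. Every listed tsRNA reached at least 20.15 CPM in some library, and this member did so only in COPD model 3. If the listing used such a cut, this member was listed through the group where it is high. Its separation is then not independent of the listing. The log2 change was 1.94 ± 0.82 (SE, 95% interval 0.28 to 3.60), with an unadjusted edgeR p, from the fit over all tsRNAs with its Benjamini-Hochberg adjusted value, of 0.023 and 0.64. Over the 16 alternatives the change stayed between 0.87, without the 3 shallowest libraries, and 2.23, and the adjusted p between 0.44 and 0.999. Without COPD model 3 alone it was 1.25. tRF-1:29-Glu-TTC-1 had 26.18, 17.51 and 73.91 CPM in the COPD model against 11.76, 19.97 and 16.42 CPM in control. Its groups overlapped through COPD model 2, and its log2 change was 1.32 ± 0.68 (SE; adjusted p = 0.76 by edgeR), or 0.65 without COPD model 3. tRF-1:31-Glu-TTC-1 had 54.63, 82.38 and 132.1 CPM in the COPD model against 50.2, 21.35 and 45.15 CPM in control, without overlap, at a log2 change of 1.15 ± 0.62 (SE; adjusted p = 0.79 by edgeR), or 0.44 without the 3 shallowest libraries.

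Groups of deposited CPM did not overlap for 3 of the 24 members, all higher in the COPD model, beside 10 of 193 tsRNAs higher (5.18%) and 20 of 193 in either direction (10.4%). They were tRF-1:30-Glu-TTC-1, tRF-1:31-Glu-TTC-1 and tRF-1:30-Glu-TTC-2. Both 30-nucleotide members reached 20.15 CPM, the lowest maximum of any listed tsRNA, only in COPD model libraries. With TMM factors there were 4 such members, the same 3 and tRF-1:29-Glu-TTC-1, beside 9.84% of all tsRNAs. As shares of the member counts, which take no account of the rest of the library, tRF-1:30-Glu-TTC-1 and tRF-1:31-Glu-TTC-1 kept this separation. Within Glu-TTC-1, the 30-nucleotide piece held 2.30%, 2.87% and 4.15% of the counts in the COPD model, 2.14%, 3.87% and 2.45% after BMSCs and 1.53%, 1.46% and 1.16% in control. In Glu-TTC-2 the same length held 1.60%, 1.62% and 2.17% in the COPD model, 1.797%, 1.17% and 1.92% after BMSCs and 1.35%, 1.11% and 1.02% in control. The COPD model libraries lay above the control libraries in both families, which share all but 1 of these bases and so may share reads. BMSC-treated libraries also lay above control in Glu-TTC-1, and they overlapped control in Glu-TTC-2. The 30-nucleotide length was singled out because its members separated in CPM. At 31 nucleotides the Glu-TTC-1 shares overlapped, with 13.77%, 19.14% and 14.82% in the COPD model and 14.16%, 11.27% and 8.74% in control.

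The large Glu-CTC-1 members showed no such separation. tiRNA-1:34-Glu-CTC-1 had a log2 change of 0.23 (95% interval -0.90 to 1.35) and tiRNA-1:34-Glu-TTC-3 one of 0.07 (-1.08 to 1.21). tRF-1:32-Glu-CTC-1 and tRF-1:29-Glu-CTC-1 had -0.33 (-1.57 to 0.90) and -0.26 (-1.58 to 1.05). tRF-1:28-Glu-CTC-1 stood at -0.24 (-1.61 to 1.12), tRF-1:30-Glu-CTC-1 at 0.31 (-0.92 to 1.55) and tRF-1:29-Glu-CTC-2 at -0.74 (-2.15 to 0.66). Each of these intervals includes a doubling or a halving, so a change of that size in at least 1 direction was not excluded.

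The comparison of BMSC-treated with COPD model lungs asked whether the cells altered the fragments of the smoke-exposed lung. No member and no tsRNA passed (0 of 191, or 0.0%), with 25 tsRNAs and 2 members at an unadjusted edgeR p under 0.05. DESeq2 called 1 tsRNA, which was not a member, and limma called 0. The median log2 change of the members was -0.66, with 5 positive and 19 negative, beside -0.10 over all tsRNAs. All 12 Glu-TTC-1 and Glu-TTC-2 members were negative, with medians of -1.09 and -0.72. As nested pieces of near-identical sequences, they are not 12 separate observations. The Glu-CTC-1 median was -0.10, with 3 positive and 3 negative. Without the 3 shallowest libraries the median over the members was -0.17, beside -0.04 over all tsRNAs. Without COPD model 3 alone all 24 members were negative with a median of -0.51, beside -0.12 over all tsRNAs. This comparison shares the COPD model libraries with the one against control, so the values of both are not independent.

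tRF-1:29-Glu-TTC-1 had 10.34, 8.40 and 13.59 CPM in BMSC-treated libraries against 26.18, 17.51 and 73.91 CPM in COPD model libraries. The groups did not overlap, and COPD model 3 stood far above the rest. Like tRF-1:30-Glu-TTC-1, tRF-1:29-Glu-TTC-1 reached 20.15 CPM, the lowest maximum of any listed tsRNA, only in COPD model libraries. Its log2 change was -1.55 ± 0.69 (SE, 95% interval -2.95 to -0.16), with an adjusted p of 0.36 by edgeR, and over the 16 alternatives it ran between -1.97 and -0.55 with adjusted p of 0.26 to 0.86. It was -0.88 without COPD model 3 and -0.55 without the 3 shallowest libraries. tRF-1:32-Glu-TTC-1 had 70.49, 43.85 and 48.31 CPM after BMSCs against 87.63, 76.2 and 291.1 CPM in the COPD model. Its log2 change was -1.24 ± 0.61 (SE; adjusted p = 0.38 by edgeR), and it came to -0.51 without COPD model 3 and to -0.19 without the 3 shallowest libraries. tRF-1:30-Glu-TTC-1 had 6.58, 5.60 and 6.04 CPM after BMSCs against 9.11, 12.36 and 36.95 CPM in the COPD model, at a log2 change of -1.39 ± 0.81 (SE; adjusted p = 0.53 by edgeR), or -0.70 without COPD model 3. The longest of the family, tiRNA-1:34-Glu-TTC-1, had 142.9, 41.98 and 119.7 CPM after BMSCs against 195.7, 212.6 and 284.4 CPM in the COPD model, again without overlap.

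Groups did not overlap for 8 of 24 members in deposited CPM, all lower after BMSCs, beside 24 of 193 tsRNAs lower (12.4%) and 30 of 193 in either direction (15.5%). They were all 6 members of Glu-TTC-1 and tRF-1:28-Glu-TTC-2 and tiRNA-1:34-Glu-TTC-2. The 6 Glu-TTC-1 members are nested pieces of 1 sequence measured in the same libraries, so they are not 6 separate observations. With TMM factors there were 6 such members, beside 8.81% of all tsRNAs, and as shares of the member counts there were 3. tRF-1:30-Glu-TTC-1 and tiRNA-1:34-Glu-TTC-1 were lower without overlap on each of these 3 scales, and tRF-1:29-Glu-TTC-1 and tRF-1:31-Glu-TTC-1 were so in deposited CPM but not with TMM factors. tRF-1:30-Glu-TTC-1, tRF-1:29-Glu-TTC-1 and, among those with TMM factors, tRF-1:30-Glu-TTC-2 reached 20.15 CPM, the lowest maximum of any listed tsRNA, only in COPD model libraries. If the listing used such a cut, their separation on any scale is not independent of it. The largest member of the Glu-TTC-2 family among the shorter pieces, tRF-1:32-Glu-TTC-2, overlapped, with 259.4, 113.8 and 144.2 CPM after BMSCs against 232.7, 219.3 and 502.8 CPM in the COPD model.

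In deposited CPM the BMSC-treated and COPD model groups overlapped for the 6 Glu-CTC-1 members and tiRNA-1:34-Glu-TTC-3. Scaled to the listed counts, tRF-1:31-Glu-CTC-1 did not overlap and was lower after BMSCs. It was 1 of 9 members lower without overlap on that scale, beside 25 of 193 tsRNAs (13.0%). tiRNA-1:34-Glu-CTC-1 had a log2 change of 0.01 (95% interval -1.11 to 1.13) and tiRNA-1:34-Glu-TTC-3 one of -0.34 (-1.49 to 0.80). tRF-1:32-Glu-CTC-1 stood at 0.26 (-0.98 to 1.50), tRF-1:29-Glu-CTC-1 at 0.04 (-1.28 to 1.35) and tRF-1:28-Glu-CTC-1 at -0.36 (-1.73 to 1.01). Each interval again includes a doubling or a halving.

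BMSC-treated lungs were also set against control lungs, to ask how far the treated lung stood from the unexposed one. No member and no tsRNA passed (0 of 191, or 0.0%), with 7 tsRNAs and 0 members at an unadjusted edgeR p under 0.05. DESeq2 called 1 tsRNA and no member, and limma called 0. The median log2 change of the members was -0.16, with 9 positive and 15 negative, beside 0.09 over all tsRNAs. Deposited CPM groups overlapped for all 24 members, while 10 of 193 tsRNAs (5.18%) did not overlap. TMM factors gave 0 such members as well. Scaled to the listed counts, 1 member, tRF-1:32-Glu-TTC-1, was lower without overlap, beside 11 of 193 tsRNAs (5.7%). As a share of the member counts 1 of 24 (4.17%), tRF-1:30-Glu-TTC-1, was higher without overlap, on a scale that holds the members alone. The largest negative change among the named members was that of tRF-1:29-Glu-CTC-2, at -1.30 (95% interval -2.72 to 0.13). It was -2.50 without BMSC-treated 1, -1.81 without control 2 and -0.65 without control 3. Deviations of same-numbered libraries from their group means correlated at 0.72, 0.74 and 0.20, so ratios were also read within the 3 numbers. The labels state no pairing, and BMSC-treated 1 correlated at 0.59 with control 3. BMSC-treated 2 and control 2 are both among the 3 shallowest libraries. The third of these, COPD model 3, correlated at 0.47 with BMSC-treated 2 and at 0.63 with control 2, though the numbers differ. The part of depth in these correlations was not tested. Within each number tiRNA-1:34-Glu-TTC-3 was lower after BMSCs, at 0.65, 0.75 and 0.66 of the same-numbered control library in CPM. tiRNA-1:34-Glu-TTC-1 was lower in each as well, at 0.77, 0.52 and 0.38, and so was tiRNA-1:34-Glu-TTC-2, at 0.73, 0.91 and 0.28. In all, 6 of 24 members (25.0%) were lower in all 3 numbers, beside 41 of 193 tsRNAs (21.2%). In the other direction 1 member was higher in all 3 numbers, beside 19 tsRNAs (9.84%), and 17 members were mixed. The higher one was tRF-1:30-Glu-TTC-1, at 1.21, 2.03 and 1.01 of the same-numbered control library, named after its values were seen. These ratios rest on 14, 6 and 16 reads after BMSCs against 12, 4 and 16 in control. In number 3 the reads were equal and only the library totals differed. No member passed when the number was kept as a block.

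Genes that charge, modify, cut or bind tRNA were read in the mRNA libraries, whose FPKM values are scaled to transcript length and library. Of 29 genes on the list 25 were in the table and 23 could be tested with limma on log2(FPKM + 1). Alkbh8 and Ago3 were in the table but too low to test. The list includes the glutamyl-tRNA synthetases Eprs1 and Ears2, the Ctu1, Ctu2 and Alkbh8 enzymes that modify the first anticodon base of glutamate tRNA with anticodon TTC, the tRNA methylases Trdmt1 and Nsun2, the demethylases Alkbh1 and Alkbh3, ribonucleases with Ang at their head, Dicer1, the inhibitor Rnh1 and the Argonautes. No gene of the list passed by limma in any comparison. At an unadjusted limma p under 0.05 1 list gene differed between COPD model and control lungs, 3 between BMSC-treated and COPD model lungs and 0 between BMSC-treated and control lungs. The share of all genes at that unadjusted cut is not given here, so these counts cannot be read as an excess. By adjusted p, an unlike threshold, 9 of all 11765 genes passed between COPD model and control (0.0765%). BMSC-treated and COPD model lungs differed at 15 genes (0.127%), and BMSC-treated and control lungs at 0 (0.0%).

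The list stood close to all genes in each comparison. Its median log2 change was 0.69 for COPD model against control, with 22 of 23 positive, beside a median of 0.66 over all genes. For BMSC-treated against COPD model it was -0.77, with 23 of 23 negative, beside -0.75 over all genes, and for BMSC-treated against control it was -0.08 beside -0.10. Once FPKM was rescaled to an equal sum without Scgb1a1 and the mitochondrial genes, the list medians came to 0.21, -0.13 and -0.01, beside 0.14, -0.15 and -0.01 over all genes. The signs then split into 17 positive and 6 negative between COPD model and control, and 7 positive and 16 negative between BMSC-treated and COPD model. The 3 genes of smallest p, none of which passed, were Ago4, Elac2 and Alkbh1. Ago4, an Argonaute, had 2.26 and 2.70 FPKM in BMSC-treated libraries 2 and 3 and 0.22 FPKM in library 1, against 3.45, 5.99 and 5.79 FPKM in the COPD model. Its log2 change was -1.28 ± 0.58 (SE; adjusted p = 0.38 by limma). Elac2, which trims the 3′ end of precursor tRNAs, had 0.29, 1.08 and 1.81 FPKM after BMSCs against 1.81, 3.45 and 4.32 FPKM in the COPD model, with BMSC-treated 3 and COPD model 1 level. Alkbh1 had 0.22, 0.91 and 1.34 FPKM after BMSCs against 1.74, 3.12 and 2.21 FPKM in the COPD model. The mRNA libraries BMSC-treated 1 and control 1 were low for all 3 genes and for others on the list. Rnh1 had 6.91 and 5.14 FPKM there, against 20.05 to 48.24 FPKM in the remaining libraries. Without control 1 the median over all genes for COPD model against control was 0.30. Without BMSC-treated 1 that for BMSC-treated against COPD model was -0.31, so the medians and signs above lean on these libraries. Whether mRNA and tsRNA libraries of one number share a lung is not stated in the labels.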

How the data were processed

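tsRNA and mRNA were read in 3 groups of 3 lung libraries each, grouped by the labels. Per the labels' protocols, RNA for tsRNA was pretreated to remove modifications that hinder library construction. The submitters' processing notes name FastQC, cutadapt, Bowtie, StringTie and mm10, whose versions, roles and mismatch settings the sources used here do not give. The authors deposited whole-number counts and CPM per tsRNA, the CPM being scaled to a library total larger than the listed counts. Per the file headers the mRNA table holds FPKM, and its depth is unknown. The highest CPM of each listed tsRNA was at least 20.15, so tsRNAs low in every library are not in it. The table lists each sequence with its parent tRNA.

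Members and the gene list were chosen with earlier results of these data known. edgeR 4.0.16 tested the counts (quasi-likelihood, filterByExpr, TMM, library size from listed counts, all 9 libraries in 1 fit, common biological coefficient of variation 0.54) in R 4.3.3. The script was tested on simulated data with less spread than these data and larger changes than those of the members. That test therefore does not show which changes could be found here. A standard error is the log2 change divided by the root of the F statistic. limma 3.58.1 with a mean-variance trend fitted log2(FPKM + 1) of genes with FPKM of at least 1 in at least 3 libraries. DESeq2 1.42.0 was an alternative. Sums, shares and intervals (95%, Wilson) came from Python 3.11.15, pandas 2.3.3, numpy 2.4.6 and scipy 1.17.1. Named members were any called one, the 6 of highest mean CPM, the highest of each type and anticodon, and then those of smallest p up to 12. Other members and ratios were singled out after their values were seen. From the gene list the 3 of smallest p were named. Older symbols were also matched. Ang2, Ang4, Ang5 and Ang6 are not analysed here. Some items, a sequence and a gene name among them, are not reported here.

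Whether replicate numbers pair libraries was checked by correlating deviations from group means in log2(CPM + 1) over tsRNAs. Same-numbered BMSC-treated and control libraries correlated at 0.72, 0.74 and 0.20, all over 0.1, so ratios were also read within these numbers. This does not establish a pairing. BMSC-treated 1 with control 3 (0.59) and BMSC-treated 3 with control 1 (0.22) exceeded the lowest of these. The shallow COPD model 3 correlated with the shallow control 2 (0.63) and BMSC-treated 2 (0.47), and BMSC-treated 2 with the deeper control 1 at -0.67. The part of depth was not tested. COPD model libraries correlated with same-numbered control libraries at 0.46, -0.60 and -0.53, and BMSC-treated with COPD model libraries at 0.55, -0.36 and -0.06, so no ratios were read within numbers there.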

Additional observations from a re-analysis of the deposited data

How the results depend on the processing

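No glutamate member and no gene of the list passed under any alternative run: library totals, upper-quartile factors, DESeq2, no filter, limma on log2(CPM + 1), the replicate block, each of 9 libraries left out, and, chosen after seeing the data, the 3 shallowest libraries left out together; for genes, a pseudocount of 0.1, no filter, rescaled FPKM, the replicate block and each library left out. With the replicate block the members called stayed at 0 in all 3 comparisons, and also in a fit of control and BMSC-treated libraries alone, where the smallest adjusted p by edgeR was 0.61. Calls over all tsRNAs ran from 0 to 6, so whether any tsRNA passes depends on these choices. With library totals as denominator the members' summed share was 2.72% in the COPD model, 2.36% after BMSCs and 2.72% in control. Leaving out single libraries moved no group's share by more than its SD. With 3 libraries per group a mean cannot move that far, so this says nothing about how stable the share is. Of 588 values of the 12 named members under alternatives, 57 changed sign and 20 moved by over 1 SE. Upper-quartile factors put the median change of all tsRNAs in COPD model against control at -0.04, against 0.21 with TMM factors, and the members' median at 0.18 and 0.29. Depth limits the scarce members, some of which rest on 2 to 4 reads in a library.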
